A study of Mus musculus with 31 samples.

Results

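Elane (neutrophil elastase), Prtn3 (proteinase 3), Ctsg (cathepsin G), Mpo (myeloperoxidase) and Prss57 (the serine protease NSP4) encode proteins of the primary (azurophil) granules of neutrophils. They are described with Ms4a3 (a membrane protein of granulocyte-monocyte progenitors) and Cst7 (cystatin F, an inhibitor of cysteine cathepsins). The 7 are called primary granule genes below. They were chosen by symbol, 7 of 45706 gene identifiers counted, and each symbol matched 1 identifier. The libraries were RNA-seq of cells sorted from bone marrow of wild-type C57BL/6 mice aged 10 weeks. Each mouse was injected intraperitoneally with either PBS alone or PBS containing β-glucan (1 mg), a glucose polymer from fungal walls. Cells labelled long-term haematopoietic stem cells (HSC) were collected on day 7 from 4 PBS and 3 β-glucan libraries, and on day 28 from 4 and 4. Cells labelled multipotent progenitors (MPP) were collected on day 28 from 4 PBS and 4 β-glucan libraries. In a further arm, mice given PBS or β-glucan received 150 mg/kg of 5-fluorouracil (5-FU, which kills dividing cells) on day 7, and HSC were taken on day 14 after it, with 4 libraries each. All 31 libraries therefore came from mice that had been injected, and those of the 5-FU arm had 5-FU in both groups. The labels do not say whether a library came from 1 mouse or several, and all p-values therefore reflect library-to-library spread, which may be technical.

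Primary granules are made at the promyelocyte stage of granulocyte development, when the genes of their enzymes are strongly transcribed. Expression of these genes falls again as cells pass to the myelocyte stage and make the secondary and tertiary granules with lactoferrin, lipocalin and gelatinase. The proteases are made as inactive proenzymes, activated by the dipeptidyl peptidase cathepsin C (Ctsc) and stored on the proteoglycan serglycin (Srgn), and serpins and Slpi inhibit them in the cytosol and outside the cell. The transcription factors C/EBPα, PU.1 (Spi1), Myb and the RUNX1-CBFβ pair are known regulators of these genes.

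Libraries held 19331663 to 39485556 counts, and each member was deeply counted, from 979 counts for Cst7 in its lowest library to 225899 for Mpo in its highest. The libraries did not have the composition of pure stem cells. The 16 genes of the HSC marker list held 0.265 to 0.299% of counts in HSC of PBS mice on day 7 and 0.0614 to 0.105% on day 28. Meanwhile 17 genes of secondary and tertiary granules and mature neutrophils held 5.74 to 6.52% and 7.27 to 8.04% of counts there. The 16 erythroid genes, haemoglobins included, held 6.76 to 8.20% and 18.7 to 19.7%. The HSC markers Procr and Mecom averaged 53.8 and 48.4 CPM (counts scaled to equal library totals) in HSC of PBS mice on day 7, against 7.53 and 10.1 CPM on day 28 (both named after their values were seen). In these bulk libraries, more promyelocytes among the sorted cells and more granule gene RNA per cell cannot be told apart. 1 library titled as MPP of PBS mice (library 1) carried an HSC tag in another label. Its title was followed, and values without it are given where it matters.

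In mm10, the build of the count tables, Elane lies on chromosome 10 at 79886312 to 79888216 on the plus strand. Prtn3 (chromosome 10, 79874476 to 79883174, plus strand) ends 3138 bases before it. Prss57 (chromosome 10, 79781474 to 79790961, minus strand) is 95351 bases from Elane, so 3 of the 4 serine proteases share a locus. The other serine protease, Ctsg, is at 56099881 to 56102574 on the minus strand of chromosome 14, within 14665 bases of the mast cell and basophil protease gene Mcpt8. Mpo is at 87793581 to 87804413 on the plus strand of chromosome 11. Ms4a3 is at 11629496 to 11640851 on the minus strand of chromosome 19. Cst7 is at 150570415 to 150578944 on the plus strand of chromosome 2. Exons of Elane, Ctsg, Ms4a3 and Cst7 overlapped no other annotated gene. For Prtn3, 9.18% of exonic bases overlapped Plppr3, for Mpo 15.0% overlapped Gm11505, and for Prss57 40.7% overlapped Fstl3. The library kit does not mark strand, so reads in those stretches cannot be told apart.

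The sequences before the members' start sites are shown with motif letters found in them. Whether these letters bear on the members' levels was not tested. RefSeq (GRCm38.p6) gave a window of 250 bases before to 50 bases after the start for 6 of the 7 members. Each of the 6 windows held GGAAGT, the core bound by ETS family factors such as PU.1, searched on both strands, as did 23.8% of all 32841 windows. The first match began 83 bases before the start in Elane, 93 in Prtn3, 205 in Ctsg, 222 in Mpo, 55 in Ms4a3 and 62 in Cst7. The longer GAGGAAGT, which contains it, was present in Elane, Prtn3 and Mpo and in 3.2% of all windows, and GGAGGAAGT in Elane and Prtn3 and in 1.24%. Both longer words follow the letters around the match in members' own windows. Their shares of all windows are therefore descriptions and no test. AACNG, the core of the Myb motif, occurred in 5 of 6 windows and in 80.3% of all. TGTGGT, the core of the RUNX motif, occurred in Ctsg and Cst7 and in 16.8% of all, and TTGCNNAA, a C/EBP motif, in Ms4a3 and Cst7 and in 10.8%. A match describes the letters only. The 200 bases before the start of Elane (chr10:79886112-79886311, plus strand) and Prtn3 (chr10:79879467-79879666, plus strand) are given because these neighbours share the longest motif. The RefSeq starts of Prtn3 and Mpo lie inside the spans counted for them. The printed Prtn3 stretch lies wholly within its counted span, and the printed Mpo stretch runs into its own. Distances for both are from the RefSeq start. For Ctsg (chr14:56102746-56102806, minus strand), Mpo (chr11:87793535-87793595, plus strand), Ms4a3 (chr19:11640873-11640933, minus strand) and Cst7 (chr2:150570326-150570386, plus strand) the 61 bases around the first match are given. All are 5′ to 3′ on the gene's strand, and capitals mark GGAAGT.
Elane: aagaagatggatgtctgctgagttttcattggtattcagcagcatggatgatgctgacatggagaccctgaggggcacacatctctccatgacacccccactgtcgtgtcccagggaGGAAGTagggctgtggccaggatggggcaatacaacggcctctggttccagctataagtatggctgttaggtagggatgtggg
Prtn3: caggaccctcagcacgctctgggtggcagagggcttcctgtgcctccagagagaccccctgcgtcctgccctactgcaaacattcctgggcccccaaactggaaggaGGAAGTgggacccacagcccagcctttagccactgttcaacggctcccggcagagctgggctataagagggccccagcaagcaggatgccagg
Ctsg: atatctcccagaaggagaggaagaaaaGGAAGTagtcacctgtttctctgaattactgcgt
Mpo: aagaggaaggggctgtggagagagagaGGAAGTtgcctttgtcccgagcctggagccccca
Ms4a3: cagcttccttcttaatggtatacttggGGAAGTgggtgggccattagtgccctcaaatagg
Cst7: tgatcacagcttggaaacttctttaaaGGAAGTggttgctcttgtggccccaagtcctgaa

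Per length of annotated exon, Elane was the most abundant member, with a mean over the 31 libraries of 4082 CPM per kilobase of exon. Mpo followed at 1613, Prtn3 at 426, Ctsg at 239, Ms4a3 at 228, Cst7 at 84.8 and Prss57 at 40.7 CPM per kilobase. The length used is that of all annotated exonic bases of a gene, not of 1 transcript. The order therefore depends in part on annotation, as for Prss57, where 40.7% of those bases overlap Fstl3. The order of Ctsg and Ms4a3 depended on the group: Ms4a3 had the higher mean in HSC of PBS mice on day 28 (191 against 184), of β-glucan mice on day 28 (272 against 240.5) and of β-glucan mice after 5-FU (287 against 267 CPM per kilobase). In HSC of PBS mice after 5-FU both were at 281 CPM per kilobase, and in the 4 other groups Ctsg was higher. Over all libraries and conditions, the ranges of neighbours in this order overlapped, as for Ctsg (128 to 372) and Ms4a3 (99.6 to 382 CPM per kilobase), except that Mpo (904 to 2186) was above Prtn3 (239 to 594 CPM per kilobase) throughout. Of the counts of all members together, Mpo took a mean of 47.3 to 56.5% and Elane 29.4 to 37.8%, depending on the group, so that these 2 genes carry most of any summed level. The summed level of the 7 genes was 0.595 to 0.732% of all counts in HSC of PBS mice on day 7 and 0.967 to 1.42% in those of β-glucan mice. On day 28 it was 0.912 to 0.996% against 1.13 to 1.35% in HSC, and 0.974 to 1.05% against 1.19 to 1.24% in MPP. In HSC after 5-FU it was 0.918 to 1.60% in PBS mice and 1.10 to 1.31% in β-glucan mice, and only there did the groups overlap.

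**Figure D1:**
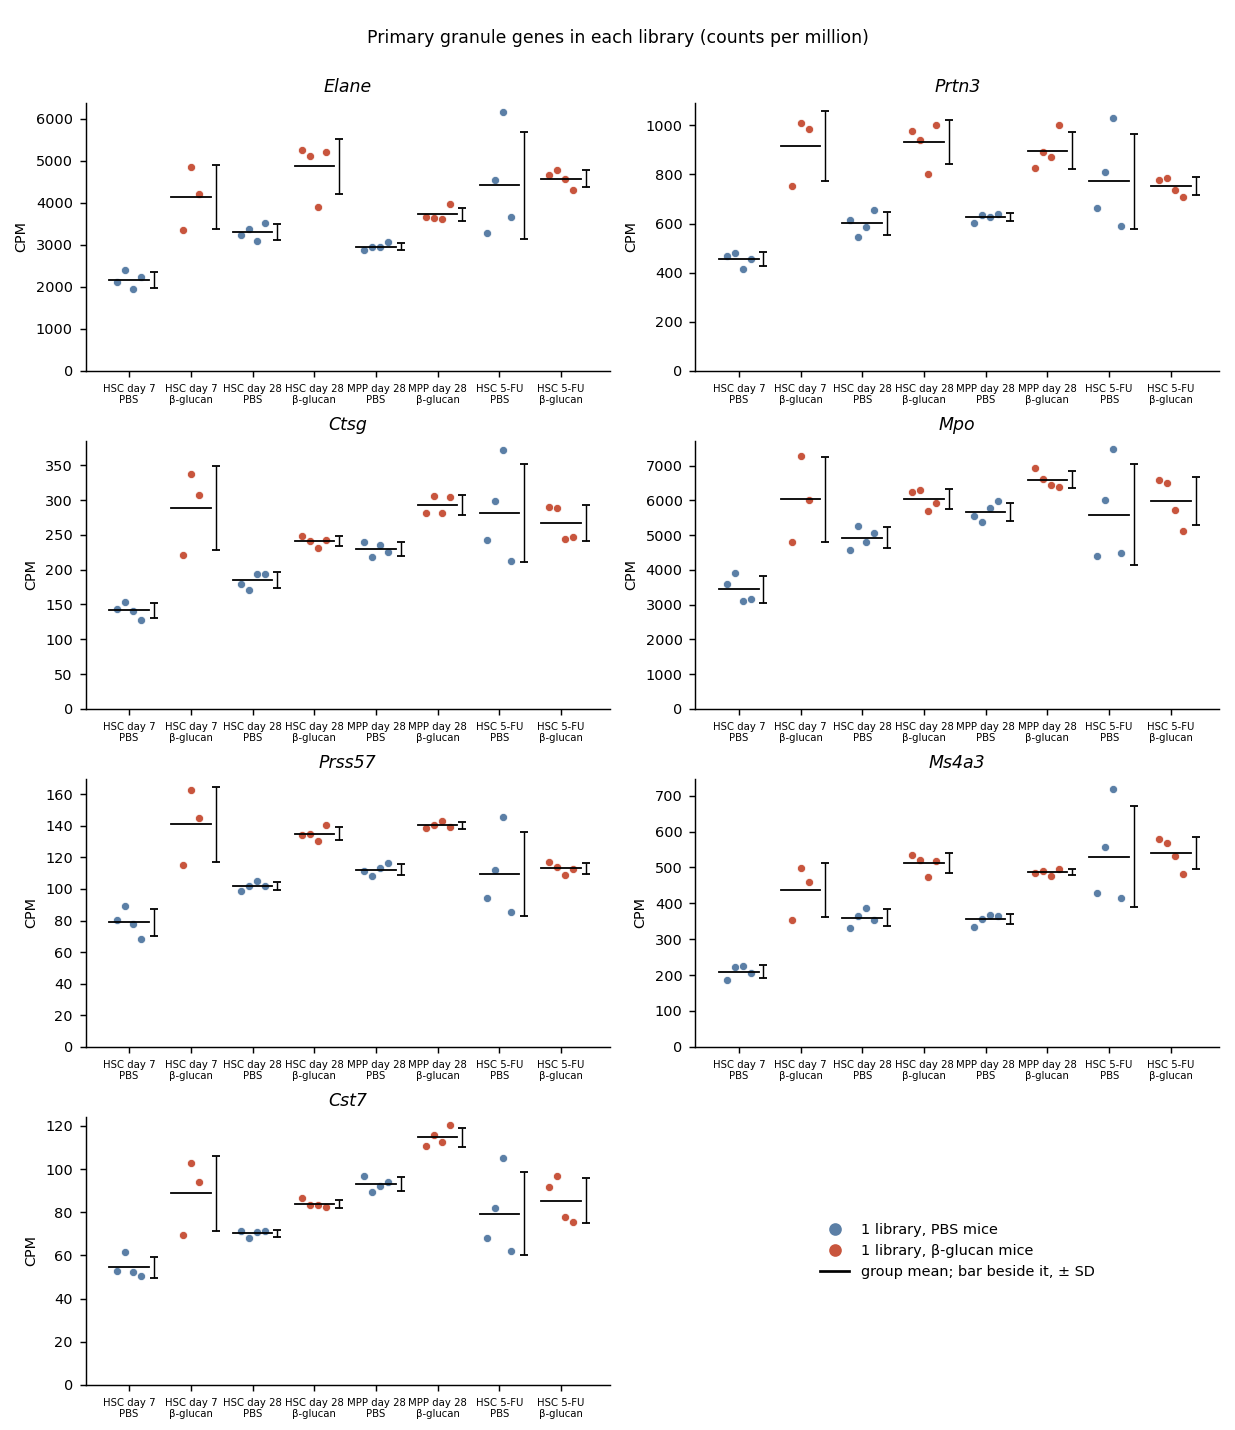
CPM (y axes, linear from 0) of the 7 primary granule genes in each of the 31 libraries (points), by group (x axes), with the group mean (line) and SD (bar). The β-glucan libraries lie above the PBS libraries for all 7 genes in HSC on day 7, HSC on day 28 and MPP on day 28, and overlap them after 5-FU.

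On day 7, β-glucan raised all 7 genes in HSC, between 1.63-fold (Cst7) and 2.08-fold (Ms4a3) in mean CPM. Every β-glucan library was above every PBS library for each gene. All 7 passed the test (edgeR's quasi-likelihood F-test, p adjusted by Benjamini-Hochberg over 16403 genes to under 0.05), against 2.83% of all genes tested that were called higher. Non-overlap upward was seen in 7 of 7, against 6.58% of all genes. The members' median log2 fold change was 0.99 and that of all genes was -0.01.

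Among the serine proteases on day 7, Elane, which degrades elastin and bacterial proteins, was at 2117, 2397, 1943 and 2231 CPM in the PBS libraries and 3341, 4848 and 4218 CPM in the β-glucan libraries. Its log2 fold change was 0.99 ± 0.13 (SE), with an adjusted p of 0.00157. Its neighbour Prtn3, a protease of overlapping substrates, was at 466, 480, 414 and 457 CPM with PBS and 751, 1010 and 985 CPM with β-glucan. That is a log2 fold change of 1.07 ± 0.12 (adjusted p = 0.000494). Both genes thus roughly doubled, and the lowest values among β-glucan libraries came from library 1 in both. Ctsg, a chymotrypsin-like protease, was at 144, 153, 141 and 128 CPM with PBS and 221, 338 and 307 CPM with β-glucan (log2 fold change 1.09 ± 0.14). Prss57, a trypsin-like protease of low abundance, was at 80.4, 89.1, 78.1 and 68.3 CPM with PBS and 115, 163 and 145 CPM with β-glucan (log2 fold change 0.89 ± 0.13). β-glucan library 1 was again the lowest of its group for both.

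Of the members that are not serine proteases, Mpo, the haem enzyme that makes hypochlorous acid, was at 3606, 3916, 3095 and 3164 CPM with PBS and 4813, 7274 and 6001 CPM with β-glucan on day 7 (log2 fold change 0.87 ± 0.15). Ms4a3 was at 188, 222, 225 and 206 CPM with PBS and 355, 499 and 459 CPM with β-glucan (log2 fold change 1.12 ± 0.13). Cst7 was at 52.9, 61.7, 52.5 and 50.6 CPM with PBS and 69.5, 103 and 94.2 CPM with β-glucan (log2 fold change 0.77 ± 0.14). The 3 genes kept the pattern of the proteases, with β-glucan library 1 lowest and library 2 highest. Their groups did not overlap, and Cst7 had the largest adjusted p of the 7, 0.00816.

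Other genes of the pathway rose with them on day 7. Of 10 genes that process, pack or inhibit the granule proteases, 6 passed the test as higher and 0 as lower, with a median log2 fold change of 0.38. Ctsc, which activates the proteases, had 1.01 ± 0.11, the inhibitors Serpinb1a and Serpinb6a 0.66 and 0.45, and Srgn, the packing proteoglycan, 0.39. Of 11 tested of 12 lysozymes and lysosomal hydrolases, 3 rose, among them Hexa (0.56) and Lyz2 (0.54), with a median of 0.28. Gusb was at 0.28 and did not pass. Of 16 other genes high in promyelocytes and granulocyte-monocyte progenitors, 13 rose, with a median of 0.68. Fcnb (ficolin B) rose by 1.10, Ly6c2 by 1.00, Plac8 by 0.66 and Nkg7 by 0.62 on the log2 scale. Of 12 transcription factors of the lineage, 1 rose, Cebpe, at 0.90 ± 0.13. Cebpd had a log2 fold change of 0.77, Gfi1 0.72 and Spi1 0.30, none of them past the threshold. All counts are set against the 2.83% of genes called higher.

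Markers of other cells moved in the same comparison. The 17 late granule genes, which mark cells past the promyelocyte, rose in 10 cases, with a median of 0.62. Camp was at 0.92, Chil3 at 0.80, Lcn2 at 0.81 and Ngp at 0.81. Their summed share went from 5.74 to 6.52% of counts in PBS libraries to 8.18 to 11.8% in β-glucan libraries. The ratio of the members' summed counts to theirs overlapped between the groups, at 0.0912 to 0.122 with PBS and 0.118 to 0.125 with β-glucan. Of 16 erythroid genes 13 fell and of 12 B cell genes 11 fell, against 3.88% of all genes called lower. The erythroid share went from 6.76 to 8.20% down to 2.25 to 3.17% of counts, and the B cell share from 0.257 to 0.281% down to 0.139 to 0.202%. No erythroid, B cell or late granule marker was at 0 in any library. A refit without the rows of the haemoglobin and late granule genes kept 7 of 7 members called. It left the members' own counts as they were and is no test of cell content. The part of these other cell types in the members' rise was not tested.

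**Figure D2:**
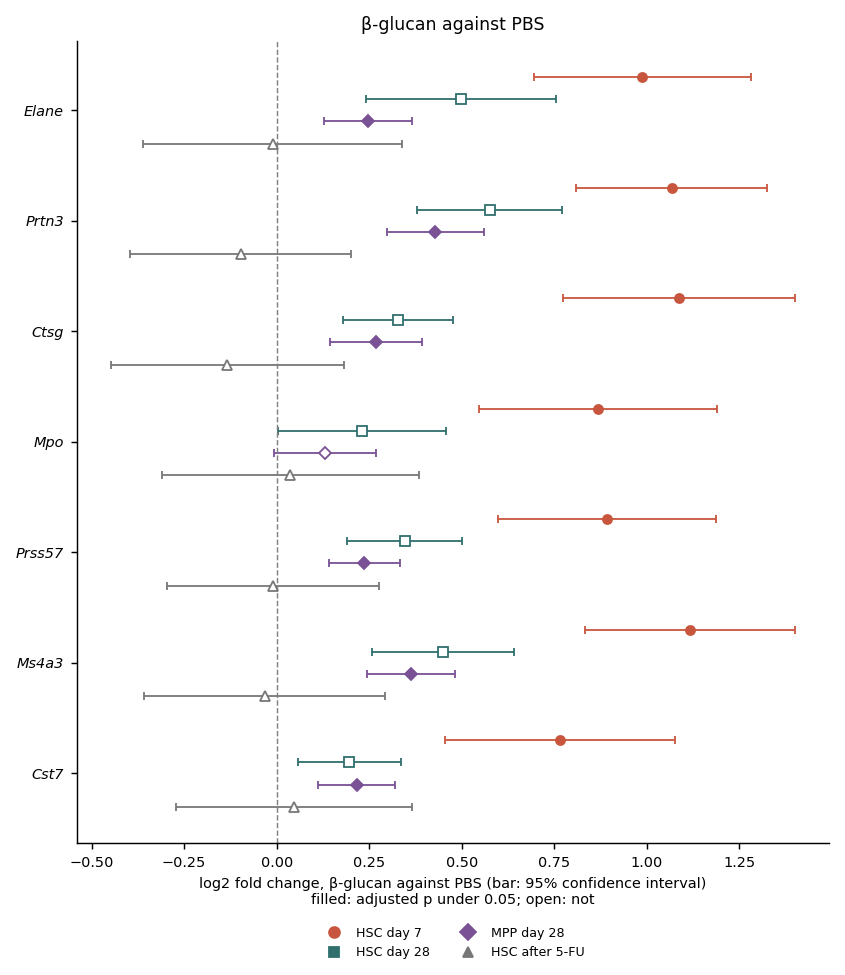
Log2 fold change of β-glucan against PBS (x axis) for each primary granule gene (y axis) in the 4 comparisons, with 95% confidence intervals as bars; filled symbols passed the adjusted threshold. The day 7 values, 0.77 to 1.12, lie to the right of the day 28 values of HSC (0.20 to 0.58) and MPP (0.13 to 0.43), and the 5-FU values lie around 0.

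In HSC on day 28, all 7 genes were again higher in every β-glucan library than in every PBS library in the unscaled CPM. So were 6.27% of all genes. None of the 7 passed the adjusted threshold in the scaled fit. Only 6 of 16025 genes did (0.0374%). At an unadjusted p under 0.05 all 7 members were counted, against 8.2% of genes with a higher level. Prtn3 was at 616, 547, 586 and 656 CPM with PBS and 977, 941, 803 and 1002 CPM with β-glucan, a log2 fold change of 0.58 ± 0.09 with an adjusted p of 0.0545. Elane was at 3244, 3369, 3088 and 3516 CPM with PBS and 5243, 5107, 3900 and 5205 CPM with β-glucan (log2 fold change 0.50 ± 0.12, adjusted p = 0.123). β-glucan library 3 was the lowest of its group for both neighbours, and still above all PBS libraries. Ms4a3 was at 330.2, 365, 388 and 355 CPM against 535, 521, 473 and 519 CPM (log2 fold change 0.45, adjusted p = 0.092).

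The remaining members differed less in HSC on day 28. Ctsg was at 171 to 195 CPM with PBS and 232 to 249 CPM with β-glucan, and Prss57 at 98.7 to 105 CPM and 131 to 140.4 CPM. Their log2 fold changes were 0.33 and 0.35. Mpo was at 4585 to 5279 CPM with PBS and 5698 to 6299 CPM with β-glucan, with a log2 fold change of 0.23 and a 95% confidence interval of 0.0049 to 0.46. Cst7 was at 67.9 to 71.1 CPM and 82.5 to 86.7 CPM, with a log2 fold change of 0.20 and an interval of 0.06 to 0.34. The number of members called in this comparison depended on the test: DESeq2's Wald test called 5 and limma voom with quality weights 6. A fit of all 8 groups called 3 (Prtn3, Elane, Ms4a3), the strict filter called 1 and no filter called 2. Without PBS library 2, 3 members were called (Prtn3, Prss57, Ms4a3), and without β-glucan library 3, 2 were called (Prtn3 and Elane, with log2 fold changes of 0.64 and 0.59).

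In MPP on day 28, β-glucan raised 6 of the 7 genes, where 2.72% of all genes tested were called higher. All 7 had every β-glucan library above every PBS library, as did 11% of all genes in the unscaled CPM. Prtn3 was at 602, 636, 629 and 639.6 CPM with PBS and 828, 889.8, 869.9 and 1002 CPM with β-glucan (log2 fold change 0.43 ± 0.06, adjusted p = 0.00499). Ms4a3 was at 335, 357, 368 and 365 CPM and 485, 491, 475 and 496 CPM (log2 fold change 0.36 ± 0.05, adjusted p = 0.00644). These were the 2 largest changes among the members in MPP. Elane was at 2866, 2940, 2942 and 3064 CPM with PBS and 3664, 3648, 3618 and 3963 CPM with β-glucan (log2 fold change 0.25 ± 0.06).

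Ctsg (218 to 239 CPM with PBS and 281 to 306 CPM with β-glucan in MPP) rose by 0.27, Prss57 (108 to 116 and 138 to 143 CPM) by 0.24 and Cst7 (89.2 to 97.0 and 110.5 to 120.5 CPM) by 0.22 on the log2 scale. Mpo, at 5390 to 5977 CPM with PBS and 6387 to 6921 CPM with β-glucan, had a log2 fold change of 0.13 with a 95% confidence interval of -0.01 to 0.27 and an adjusted p of 0.293. Most of these calls rested on the full set of libraries. Without PBS library 1, the one with the HSC tag, 2 members were called (Prtn3 and Ms4a3), and likewise without PBS library 2. Without PBS library 3, PBS library 4 or β-glucan library 4, 3 were called. With all 8 groups in 1 fit, 1 was called, Prtn3. The log2 fold changes themselves stayed between 0.10 (Mpo) and 0.46 (Prtn3) over these settings.

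The other granule gene lists had medians near or below 0 on day 28, while the transcription factors in HSC had one close to the members'. No test compared the lists, and in HSC 0 genes of any of these lists, the members included, were called. Of all genes, 6.27% in HSC and 11% in MPP did not overlap upward, beside which such counts are to be read. In MPP 2.72% of all genes were called higher and 1.91% lower. Of 10 processing and packing genes, 3 were positive in HSC, with a median of -0.12. In MPP their median was -0.00033, 1 was called lower (Slpi, -0.27), and 4 had every β-glucan library above every PBS library. Ctsc had log2 fold changes of 0.04 and 0.05. Of 16 other promyelocyte genes 8 were positive in HSC, with a median of -0.02, and 4 did not overlap upward. Nkg7 among them was at 0.28 there. In MPP 1 was called lower (Mgst1, -0.26), with a median of -0.06, and 3 did not overlap upward. Among 11 hydrolases tested in MPP, Arsb rose by 0.43 and the lysozymes Lyz1 and Lyz2 fell by 0.40 each on the log2 scale. Lyz1 and Lyz2 are near-identical copies, so their counts are uncertain. Of the 12 transcription factors, 11 were positive in HSC and 5 did not overlap upward, with a median of 0.35, the same as the members' median of 0.35. Cebpe was at 0.48 (adjusted p = 0.121) and Gfi1 at 1.06 (adjusted p = 0.092). In MPP their median was 0.06 against 0.25 for the members, and Cebpe (0.27) and Irf8 (0.36) rose.

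The late granule genes had log2 fold changes of the opposite sign to the members' on day 28. All 17 had a negative log2 fold change in HSC, with a median of -0.29 and 0 called, and 10 of 17 fell in MPP, where 1.91% of all genes were called lower, with a median of -0.33. Camp was at -0.44 in HSC and -0.43 in MPP, and Ngp at -0.25 and -0.41. The ratio of the members' summed counts to those of the late granule genes was 0.115 to 0.137 in PBS and 0.156 to 0.212 in β-glucan HSC, and 0.127 to 0.163 and 0.192 to 0.230 in MPP, so the groups did not overlap. This ratio was computed with the directions of both lists known, and is given without a test. Summed late granule counts were 7.27 to 8.04% in PBS and 6.34 to 7.25% in β-glucan HSC, and 6.44 to 7.66% and 5.39 to 6.37% in MPP. Erythroid genes, at 18.7 to 19.7% of counts in PBS and 16.5 to 18.2% in β-glucan HSC, had 0 of 16 called. In MPP they held 15.6 to 18.3% and 12.8 to 16.3%, and 1 of 16 was called, as higher. Of the 16 HSC marker genes in HSC, 1 was positive, with a median of -0.35 and 0 called. Their summed share was 0.0614 to 0.105% of counts in PBS and 0.0607 to 0.0714% in β-glucan libraries. In MPP 14 of them were tested, with a median of -0.09 and 0 called. On day 7 the 16 had a median of 0.05, with 2 called higher and 1 lower. Of T and NK cell genes in HSC on day 28, 1 of 12 was positive, with a median of -0.36 and 0 called. B cell genes there had a median of -0.23, with 0 called. Of B cell genes 8 of 12 fell in MPP and of T and NK cell genes 7 of 12. The shares of these 2 lists in MPP were 0.353 to 0.379% in PBS and 0.336 to 0.384% in β-glucan MPP, and 0.0125 to 0.0134% and 0.00957 to 0.0106%. The part of these cells in the members' differences was not tested.

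**Figure D3:**
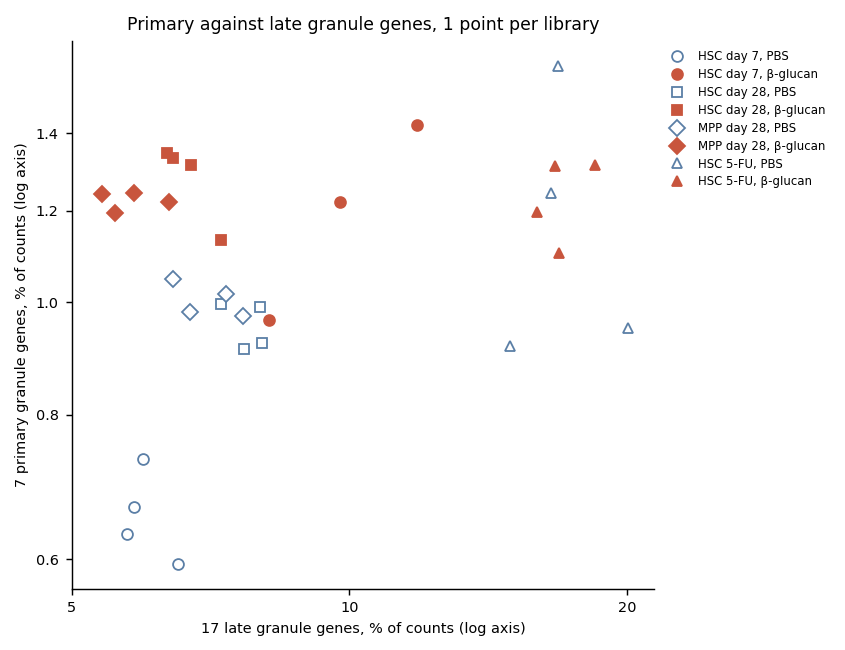
Share of counts held by the 7 primary granule genes (y axis, %, log scale) against that of the 17 late granule genes (x axis, %, log scale), 1 point per library, with open symbols for PBS and filled symbols for β-glucan. On day 7 the β-glucan points lie up and to the right of the PBS points, on day 28 they lie up and to the left, and after 5-FU the groups mix at 14.9 to 20.04% late granule counts.

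The β-glucan effect in HSC differed between the day 7 and day 28 tables for 4 of the 7 genes. PBS libraries of the 2 tables differed in composition, with 6.76 to 8.20% and 18.7 to 19.7% erythroid counts. Day therefore cannot be told apart from table and sort. In a contrast of the effects within the 2 tables, the day 28 effect was lower than the day 7 effect by 0.79 ± 0.17 for Ctsg, 0.69 ± 0.17 for Ms4a3, 0.60 ± 0.16 for Cst7 and 0.57 ± 0.16 for Prss57 on the log2 scale, where 2.58% of all genes were called lower. For Mpo (-0.66, adjusted p = 0.0537), Prtn3 (-0.52, adjusted p = 0.0642) and Elane (-0.52, adjusted p = 0.138) the difference did not pass. The sign was negative for all 7. This count was unstable. It was 7 without β-glucan library 1 of day 7 and 1 without β-glucan library 2 or 3 of day 7. It was 2 without PBS library 1, 3 or 4 of day 7, PBS library 1, 2 or 4 of day 28, or any 1 β-glucan library of day 28. Ctsg was called in all 23 alternative settings.

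Between MPP and HSC on day 28 the β-glucan effect differed for 0 of the 7 genes by edgeR's test, where 1 of 16691 genes (0.00599%) was called and 6.19% had an unadjusted p under 0.05. None of the 7 had an unadjusted p under 0.05 either, and DESeq2 and limma voom also called 0 of 7. The differences, MPP minus HSC, ran from -0.26 for Elane, with a 95% confidence interval of -0.53 to 0.02, to 0.01 for Cst7, with an interval of -0.14 to 0.17. The 4 HSC and 4 MPP libraries of each treatment do not separate effects of that size.

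After 5-FU, no difference between β-glucan and PBS was called in HSC for any of the 7 genes by edgeR's test. All genes gave 7 of 15705 (0.0446%). None of the 7 had an unadjusted p under 0.05, against 7.54% of all genes, and DESeq2 and limma voom also called 0. Elane was at 3290, 4550, 6159 and 3654 CPM with PBS and 4665, 4774, 4556 and 4291 CPM with β-glucan. PBS library 3 was the highest of all libraries of this arm for each of the 7 genes, and PBS libraries 1 and 4 were the lowest for Elane. Mpo was at 4391, 6013, 7486 and 4485 CPM with PBS and 6587, 6510, 5717 and 5117 CPM with β-glucan. Log2 fold changes ran from -0.13 (Ctsg) to 0.05 (Cst7), with intervals as wide as -0.36 to 0.34 for Elane. Without PBS library 3 all 7 log2 fold changes were positive, from 0.03 (Ctsg) to 0.21 (Cst7), still with 0 called.

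In level, the members held a mean of 1.18% of counts in PBS and 1.23% in β-glucan HSC after 5-FU. Beside these stand 0.955% in PBS and 1.28% in β-glucan HSC on day 28. Single PBS libraries after 5-FU ran from 0.918 to 1.60%. The late granule genes held 14.9 to 20.04% of counts in PBS libraries and 15.98 to 18.5% in β-glucan libraries after 5-FU. The ratio of members to late granule genes was 0.0474 to 0.0952 with PBS and 0.0654 to 0.0785 with β-glucan. These tables were counted separately, so levels are set side by side without a test. The difference between the β-glucan effects after 5-FU and on day 28 was negative for all 7 genes, from -0.69 for Prtn3 (adjusted p = 0.18) to -0.17 for Cst7. edgeR called 0 of 7, where 0.106% of all genes were called. At an unadjusted p under 0.05, 5 of 7 were counted (Prtn3, Elane, Ctsg, Prss57 and Ms4a3), against 5.78% of all genes with a lower effect. DESeq2 and limma voom each called 1, Prtn3, with an adjusted p of 0.0242 by DESeq2.

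Between MPP and HSC of day 28, 2 of the 7 members were called in PBS mice and 3 of 7 in β-glucan mice. Of all genes, 3493 of 16122 and 5678 of 15945 were called in either direction. The members' counts are near those shares and do not set them apart from other genes. In PBS mice Cst7 was 1.32-fold higher in MPP (89.2 to 97.0 CPM against 67.9 to 71.1 CPM in HSC), a log2 fold change of 0.33 ± 0.06 with an adjusted p of 0.00237. Ctsg was 1.24-fold higher (218 to 239 CPM against 171 to 195 CPM), a log2 fold change of 0.24 ± 0.06 with an adjusted p of 0.0169. These 2 of 7 stand against 9.58% of all genes called higher. Elane was lower in every MPP library (2866 to 3064 CPM) than in every HSC library (3088 to 3516 CPM), as were 9.63% of all genes, with a log2 fold change of -0.24 and an adjusted p of 0.0581. Without MPP library 1, the one with the HSC tag, Cst7 alone was called, and likewise without MPP library 3. Without HSC library 2, 4 were called, Elane (-0.19) and Mpo (0.20) besides Cst7 and Ctsg.

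In β-glucan mice the same 2 genes were higher in MPP, against 17.7% of all genes. Cst7 was at 110.5 to 120.5 CPM in MPP and 82.5 to 86.7 CPM in HSC (log2 fold change 0.35 ± 0.05, adjusted p = 0.000708), and Ctsg at 281 to 306 CPM and 232 to 249 CPM (0.18 ± 0.06, adjusted p = 0.0391). Elane was lower in MPP, at 3618 to 3963 CPM against 3900 to 5243 CPM, with a log2 fold change of -0.49 ± 0.10 and an adjusted p of 0.00385, where 18% of all genes were called lower. Libraries of the same number deviated together in this comparison, which the fit behind the values above does not take into account. With the replicate number as a block Ms4a3 was also called, with a log2 fold change of -0.17 (adjusted p = 0.0523 without the block). Elane and Cst7 passed in all 16 alternative settings. Ctsg passed in 7. It did not pass without filter, with all 8 groups in 1 fit, without any 1 of the HSC libraries or without MPP library 1, 2 or 4. Prss57 and Mpo had log2 fold changes of -0.04 and 0.03.

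The proportion of Elane to Mpo separated the sorted populations within day 28. The ratio of Elane to Mpo counts was 0.638 to 0.708 in the 4 HSC libraries and 0.508 to 0.545 in the 4 MPP libraries of PBS mice. In β-glucan mice it was 0.684 to 0.876 in HSC and 0.530 to 0.621 in MPP. In both treatments the populations did not overlap. The HSC of day 7 were at 0.587 to 0.705 with PBS and 0.667 to 0.703 with β-glucan, and those after 5-FU at 0.749 to 0.823 and 0.708 to 0.839, all above the MPP of PBS mice. Libraries 1 and 2 of the day 7 PBS HSC, at 0.587 and 0.612, lay inside the range of the MPP of β-glucan mice. This ratio uses counts of 1 library and needs no scaling, and it was picked after the values were seen, so it is given without a test. HSC marker genes were lower in MPP in the same comparisons, with 9 of 15 tested called lower and 1 higher in PBS mice, and 10 of 16 lower and 2 higher in β-glucan mice. Erythroid genes were lower in 11 of 16 and 14 of 16 cases. Of all genes, 12.1% were called lower in PBS mice. The part of these cells in the members' differences was not tested.

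**Figure D4:**
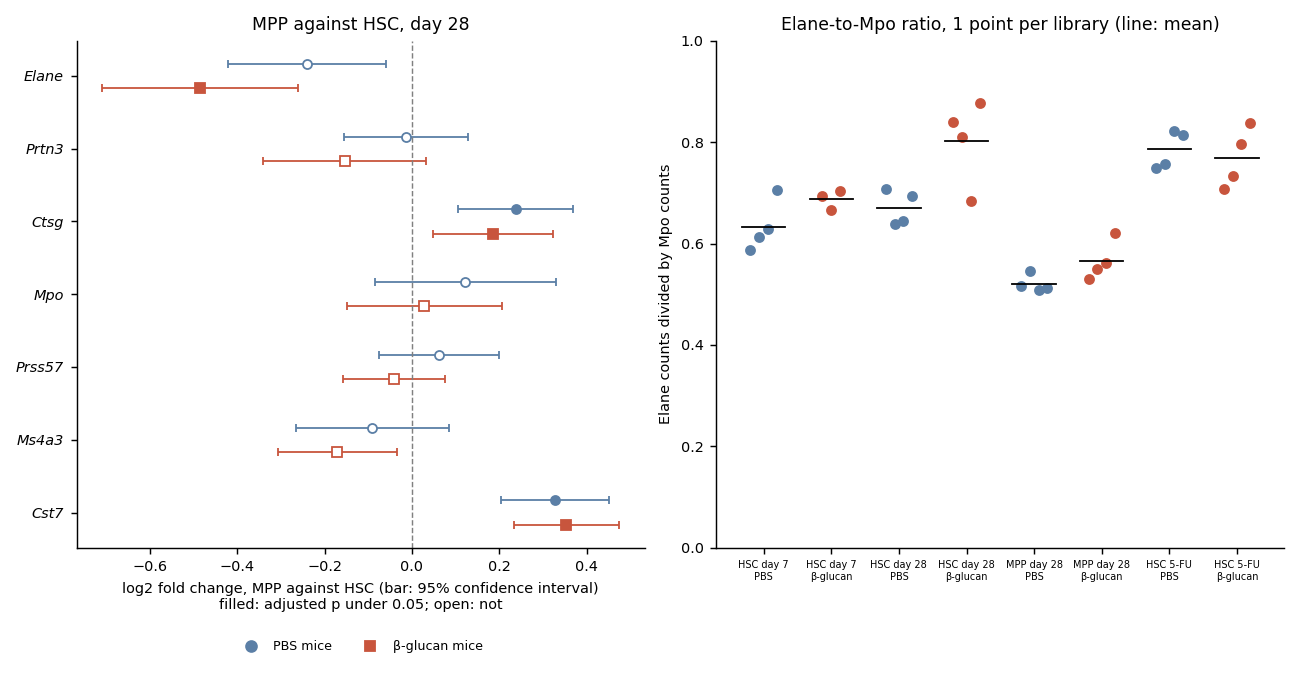
Left, log2 fold change of MPP against HSC on day 28 (x axis) for each member (y axis) in PBS and β-glucan mice, with 95% confidence intervals; filled symbols passed the adjusted threshold. Right, Elane counts divided by Mpo counts in each library (y axis) by group (x axis), with the group mean as a line; the MPP libraries, 0.508 to 0.621, lie below all HSC libraries of day 28, 0.638 to 0.876.

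Across the 31 libraries, with log2 CPM centred within each table, the members followed each other closely. Pearson correlations of pairs ran from 0.59 (Elane and Cst7) to 0.96 (Prtn3 and Ms4a3), and the neighbours Elane and Prtn3 were at 0.92. These are descriptions over libraries that share their sort, depth and treatment. Of 10142 other genes with a mean CPM of at least 5, Alas1, the first enzyme of haem synthesis in non-erythroid cells, had the pattern most like the members' mean (r = 0.97 over 31 libraries). Next came Tmed3, a cargo receptor of the secretory pathway (0.94), the granule membrane protein gene Nkg7 (0.92), the glutathione transferase Gstm1 (0.92) and Tspo, a mitochondrial outer membrane protein (0.91). Dmkn (0.90), Ptgr1 (0.89), P4hb, which encodes protein disulphide isomerase (0.88), Gstm2-ps1 (0.88) and Gm3571 (0.87) completed the first 10. Gstm1 and Gstm2-ps1 belong to a family of near-identical copies and are uncertain. The 10 were picked by this likeness over the same libraries, treatment included. Their directions below follow in part from that choice and are no separate evidence. On day 7 all 10 were called higher in β-glucan HSC, as were 2.83% of all genes, from 0.44 for P4hb to 1.28 for Dmkn. In HSC on day 28, 0 of the 10 were called and 8 had every β-glucan library above every PBS library, as did 6.27% of all genes. Dmkn was at 0.53 there (adjusted p = 0.0545) and Alas1 at 0.17. In MPP Dmkn (0.56) and P4hb (0.22) were called, where 2.72% of all genes were called higher. There 7 of the 10 did not overlap upward, as did 11% of all genes, Alas1 among them at 0.17.

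Among the lists, correlation with the members' mean was 0.78 for Ctsc, 0.79 for Serpinb1a and 0.68 for Srgn. It was 0.68 for the transcription factor gene Gfi1, 0.55 for Cebpe and 0.34 for the late granule gene Camp. Correlations of shares within a library have a common total.

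Genes beside the members were mostly not called. Within 100000 bases of a member lay 72 other annotated genes, of which 34 were tested on day 7. Their median log2 fold change was 0.04, with 3 called higher and 2 lower, where 2.83% of all genes were called higher and 3.88% lower. The higher ones, all near Ms4a3 and named after their values were seen, were Ms4a6d (1.72), Ms4a6b (0.61) and Oosp1 (1.89, at a mean of 1.46 CPM). The lower ones were Ms4a2 (-0.50), 5777 bases from Ms4a3, and Mcpt8 (-0.44) beside Ctsg, both genes of mast cells and basophils. Of the neighbours with the highest mean CPM, Epx near Mpo was at 0.05, Bsg near Prss57 at -0.39, R3hdm4 and Ptbp1 near Elane at 0.17 and -0.09, and Wdr18 near Prtn3 at 0.08, with none called. In HSC on day 28, 0 of 34 were called, with a median of 0.25 against -0.02 for all genes. In MPP 4 of 33 were called higher, where 2.72% of all genes were, with a median of 0.15. Epx, the eosinophil peroxidase gene, was the only one of 32 called after 5-FU, at 0.95.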

How the data were processed

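The authors deposited whole-number counts per gene, split over 3 tables that hold 7, 16 and 8 libraries. According to the submitters' processing notes, bcl2fastq 1.8.4 and featureCounts (no version given) were used with mm10, and per the labels the RNA was amplified with a SMARTer Ultra protocol, a kit without strand marking. For the aligner, no name is given in the labels. Table columns name cell, treatment letter (P taken as PBS, G as β-glucan) and replicate. The day and the 5-FU arm were assigned from each table's set of groups. All columns were used, and 45143 of 45706 identifiers had a symbol in GENCODE M21.

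Genes were filtered with filterByExpr (minimum count 10), scaled by TMM and tested with edgeR 4.0.16 (quasi-likelihood F-test, only the groups compared, R 4.3.3), with Benjamini-Hochberg adjustment over all genes and a threshold of 0.05. The procedure was tested on simulated data. The SE is the absolute log2 fold change divided by the square root of F. Levels are CPM from the unscaled library total. TMM moved log2 values against these by -0.05 to 0.10 between groups. DESeq2 1.42.0 and limma 3.58.1 were alternatives.

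Replicate numbers were checked for pairing. Same-numbered deviations correlated at 0.12 to 0.20 between MPP and HSC of β-glucan mice, each library best with its own number. This was read from the data rather than the labels. The main fit there, as elsewhere, had no block, and called 3 members and 5678 genes. With the number as a block, 4 members and 6706 genes were called. Genes named are the 7 members, up to 4 per list by p on day 7 with those called elsewhere, the 10 most similar genes and up to 6 neighbours by CPM. Members, lists and tests were chosen with earlier results of these data known.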

Additional observations from a re-analysis of the deposited data

Results flagged for a closer look

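In 4 of 49 sets of 4 libraries (7 members in 7 groups), the highest or lowest library stood apart by Dixon's test at the 95% level, which chance gives in about 1 of 20 sets. Elane was at 3900 CPM in β-glucan library 3 of HSC on day 28, where the other 3 libraries were at 5107 to 5243 CPM. Elane was at 3963 CPM in β-glucan library 4 of MPP, where the others were at 3618 to 3664 CPM. Cst7 was at 67.9 CPM in PBS library 2 of HSC on day 28, where the others were at 71.1 CPM, and at 86.7 CPM in β-glucan library 1, where the others were at 82.5 to 83.2 CPM.

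The β-glucan effect in HSC differed between day 28 and day 7 by a test of the difference itself for 4 members: Ctsg (-0.79), Ms4a3 (-0.69), Cst7 (-0.60) and Prss57 (-0.57, log2 scale, day 28 minus day 7). The days are in separate tables of differing cell composition, so day cannot be told apart from these.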

How the results depend on the processing

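Each comparison was refitted with 1 choice changed at a time, in 166 fits, of which 94 left out a library. On day 7 all 7 members were called in all 15. Other counts moved, and the cause was not tested. Genes called numbered 1102 on day 7 (DESeq2 1711, limma voom 1744, all 8 groups in 1 fit 1971, replicate block 645, 500 to 1252 without 1 library) and 6 in HSC on day 28 (no filter 182, DESeq2 589, voom 598, all groups 525, block 14, 1 to 51 without 1 library). In HSC on day 28, members called were 0, against 2 with no filter, 1 with CPM of at least 5, 5 by DESeq2, 6 by voom, 3 with all groups, 1 with the block and 0 to 3 without 1 library. In MPP, genes called were 733 (no filter 1181, DESeq2 1301, all groups 228, 164 to 1010 without 1 library) and members 6 (all groups 1, 2 to 6 without 1 library). After 5-FU genes called were 7 (no filter 110, CPM of at least 5 16, DESeq2 147, voom 42, all groups 94, block 16, 2 to 61 without 1 library). Between MPP and HSC of PBS mice members called were 2 (voom 4, all groups 1, 1 to 4 without 1 library) and genes 3493 (2004 to 5050 without 1 library). For the effect in MPP minus HSC, genes called were 1 (2 with no filter, DESeq2, all groups or block, 1 to 3 without 1 library). For day 28 minus day 7, genes called were 866 (DESeq2 1432, voom 1611, all groups 1461, 445 to 1051 without 1 library) and members 4 (1 to 7). For 5-FU minus day 28, genes called were 18 (no filter 59, DESeq2 151, voom 118, all groups 41, block 7, 6 to 49 without 1 library) and members 0 (DESeq2 1, voom 1). Signs that turned were of log2 values near 0, none of them called. After 5-FU, Prss57 was 0.0011 with no filter, 0.018 by voom and 0.018 with the block, Elane 0.049 by voom and 0.032 with the block, and Ms4a3 0.0069 by voom. Prtn3 between MPP and HSC of PBS mice was 0.0033 with no filter, and Cst7 in MPP minus HSC was -0.00027 with no filter and -0.0076 by voom. Without 1 library, values after 5-FU ranged from -0.14 to 0.19 for Elane, -0.18 to 0.075 for Prtn3, -0.22 to 0.034 for Ctsg, -0.079 to 0.21 for Mpo, -0.093 to 0.16 for Prss57, -0.14 to 0.15 for Ms4a3 and -0.037 to 0.21 for Cst7. Ranges also crossed 0 for Prtn3 between MPP and HSC of PBS mice (-0.035 to 0.023), Mpo between MPP and HSC of β-glucan mice (-0.0055 to 0.061), Cst7 in MPP minus HSC (-0.024 to 0.057) and Cst7 in 5-FU minus day 28 (-0.25 to 0.0022). No main fit took the replicate numbers as pairs. Outside MPP against HSC of β-glucan mice, same-numbered correlations were -0.06 to 0.01 on day 7, -0.05 to 0.17 in HSC and 0.02 to 0.13 in MPP on day 28. They were -0.04 to -0.01 after 5-FU and 0.02 to 0.11 between MPP and HSC of PBS mice. Each library was best with its own number in 0, 3, 3, 0 and 2 cases.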
